A study of Mus musculus with 8 samples.

Results

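The 45 genes described here build and supply the cilium of the photoreceptor, and their mRNA was measured in retinas of mice with reduced *Rbfox2*, a regulator of RNA splicing, and of controls. They are the rows of the deposited gene table whose symbol begins with Bbs, Ift or Nphp followed by a number, or with Tctn followed by a digit, together with further rows chosen by name (*Ttc8*, *Kif3a*, *Kif3b*, *Kif17*, *Dync2h1*, *Rpgr*, *Rpgrip1*, *Rpgrip1l*, *Cep290*, *Rp1*, *Rp1l1*, *Arl3*, *Arl6*, *Arl13b*, *Unc119*, *Tulp1* and *Cc2d2a*). The table holds 17500 genes, of which 16797 passed the filter on low counts, and all 45 passed it. *Rp2*, which the list also names, stands in the table under its older symbol *Rp2h* and is described apart from the 45.

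Whole retinas of 6-month-old mice on a C57BL/6J background were sequenced, 4 labelled Rbfox2 KD (M893, M901, M902 and M909, called *Rbfox2*-/- here) and 4 labelled control (M833, M894, M896 and M898), 1 library per mouse. According to the study's methods, the *Rbfox2*-/- mice were *Rbfox2* fl/fl with a recombinase transgene that is broadly expressed and that tamoxifen activates, and the controls were *Rbfox2* fl/+ mice of the same age. By the labels, all 8 mice had tamoxifen for 4 months, whereas the methods give a short course of tamoxifen, or of vehicle, in young adults. The controls are not described as carrying the recombinase, so that its presence and the loss of *Rbfox2* cannot be told apart. The deposited counts summed to between 160630226 (M902) and 211283591 (M833) per mouse. *Rbfox2* itself was measured at 53.6 to 59.4 CPM (counts scaled to a common library size) in *Rbfox2*-/- retinas and at 144 to 157 CPM in controls, so that each library matched its label. The study's immunostaining placed Rbfox2 protein only in ganglion, amacrine and horizontal cells, and so not in photoreceptors. *Xist*, the RNA of the inactive X chromosome, was at 1440 CPM in M901 and 1739 CPM in M902 and at 1.71 to 2.22 CPM in the other 6 mice, so that these libraries stand apart and each main count is also given without them.

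The light-sensitive outer segment of a rod or cone is a modified primary cilium, joined to the cell body by the connecting cilium, which corresponds to the transition zone of other cilia. Proteins made in the cell body reach the outer segment along this bridge. Intraflagellar transport (IFT) moves cargo along the microtubules of the cilium, with the IFT-B complex and kinesin-2 on the way out and the IFT-A complex and dynein-2 on the way back. The BBSome, a coat-like complex, carries membrane proteins out of the cilium, and small GTPases with their partners load and release lipid-modified proteins. Mutations in many of these genes cause retinal degeneration in humans, alone or as part of Bardet-Biedl, Joubert or Senior-Loken syndrome.

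Levels are first compared between genes per length, as the deposited FPKM (fragments scaled for transcript length and library size). The 5 most abundant members act in phototransduction transport or in the outer segment axoneme. *Unc119*, which shields the lipid tail of transducin during transport, had 1350.4 ± 21.2 FPKM (SD, n = 4) in controls. *Tulp1*, a photoreceptor protein required for transport to the outer segment, followed with 713 ± 23.6 FPKM (SD, n = 4) and *Rp1*, a microtubule protein of the outer segment axoneme, with 666 ± 31.9 FPKM (SD, n = 4), and the intervals of these neighbours overlapped. *Arl3*, the GTPase that releases lipidated cargo, had 252 ± 4.09 FPKM (SD, n = 4), and *Rp1l1*, the paralogue of *Rp1* in the same axoneme, 131 ± 6.30 FPKM (SD, n = 4).

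Among the 45 members, which hold only some of the genes of each complex, the subunits of the general ciliary machinery lay lower on the FPKM scale. Control means ran from 22.2 FPKM (*Bbs1*) to 74.1 FPKM (*Bbs7*) in the BBSome with its recruiter *Arl6*, from 8.20 (*Ift88*) to 41.8 FPKM (*Ift20*) in IFT-B, and from 9.59 (*Ift140*) to 25.1 FPKM (*Ift43*) in IFT-A. The transition zone genes lay between 3.30 (*Rpgrip1l*) and 17.7 FPKM (*Cc2d2a*), and the motors between 2.41 (*Kif17*) and 23.9 FPKM (*Kif3b*). Among the 45 members, all 8 BBSome genes were thus above all 9 transition zone genes in their control means. This order holds for the members only. Of the transition zone genes outside the rule that are named below, *Ahi1* had 48.6 and *Tmem237* 28.7 FPKM in controls, above *Bbs1*. *Tmem107* had 16.7 FPKM, below it.

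**Figure D1:**
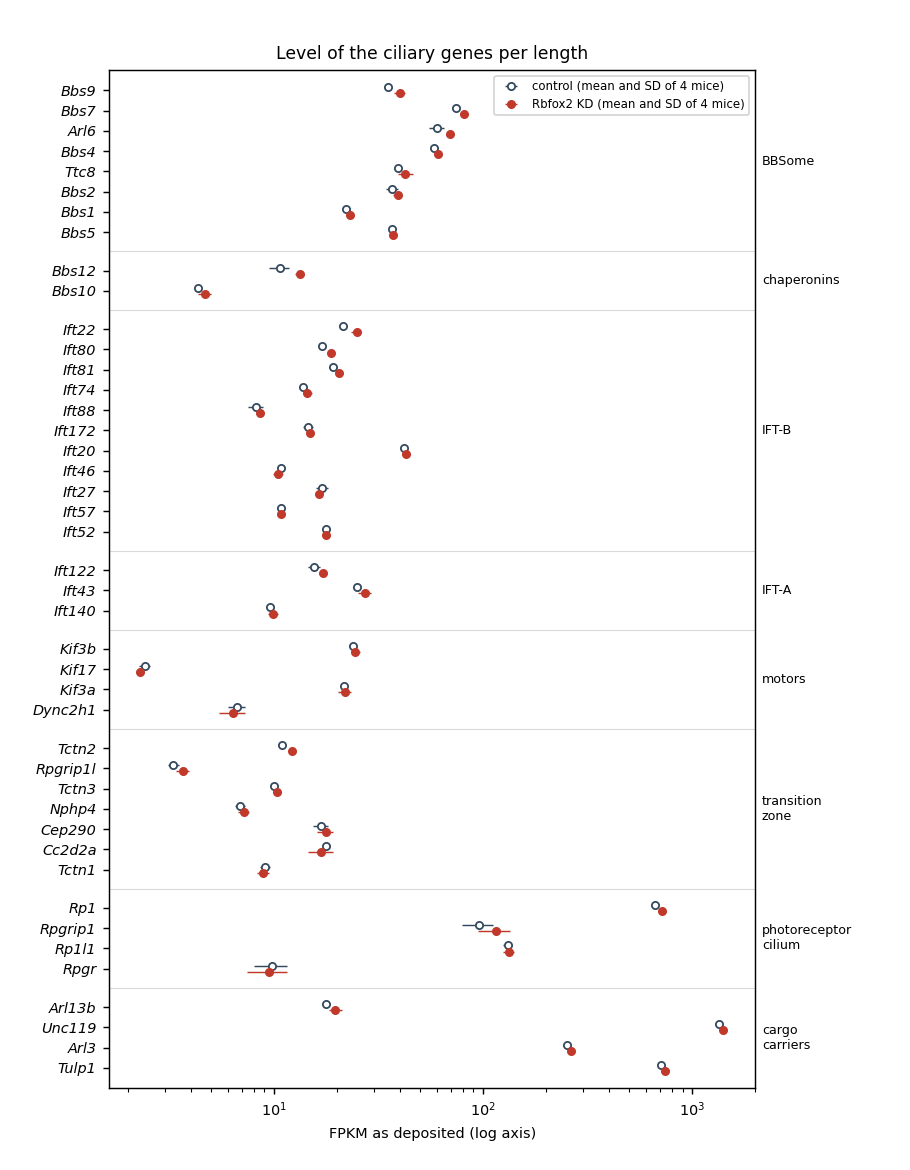
Level of 43 of the ciliary genes in deposited FPKM (x, log axis), as mean and SD of 4 control mice (open) and 4 *Rbfox2*-/- mice (filled), grouped by role. Levels run from 2.41 FPKM (*Kif17*) to 1350.4 FPKM (*Unc119*) in controls, and the groups lie close together for every gene.

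Whether reduced *Rbfox2* goes with a difference in these genes was asked by comparing the counts of the 2 groups. None of the 45 members had a false discovery rate (FDR) under 0.05 in edgeR's quasi-likelihood test, in which 11 of the 16797 genes tested, 0.0655%, were called. The lowest FDR, adjusted by Benjamini-Hochberg over all genes, was 0.129 (*Bbs9*). DESeq2 called 7 of the members, where it called 2.77% of all genes, and edgeR's likelihood ratio test called 2 of them, where it called 0.976%, and limma-voom called 0, where it called 0.0655%. At an unadjusted p under 0.05 in the quasi-likelihood test, 14 members were higher in *Rbfox2*-/- retinas and 0 lower, beside 6.42% and 6.87% of all genes tested and 13.3% in either direction.

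The differences were small and mostly in 1 direction. The log2 fold change was above 0 in 37 of 45 members, against 50.7% of all genes tested, and its median was 0.081, against 0.0016 over all genes tested. Of the 10820 genes within the members' range of mean CPM, 54.8% were above 0, with a median of 0.0082. The highest was 0.34 (*Bbs12*). In 11 members every *Rbfox2*-/- mouse lay above every control, and in 0 members below, where 3.64% and 3.39% of all genes did so, 7.03% together. For each of these 11 genes the exact permutation test gives p = 0.0286 (two-sided), which is the smallest that 4 mice against 4 allow. Full separation of the groups always gives this value, so that it only restates the choice of these genes.

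The counts depend on the mice. Without M901 and M902, 6 members had an unadjusted p under 0.05 (*Bbs9*, *Bbs12*, *Ift22*, *Ift80* and *Tctn2* among them), where 6.01% of all genes did. In that fit 39 of 45 log2 fold changes were above 0, with a median of 0.062, against -0.0043 over all genes tested. In that setting edgeR's quasi-likelihood test called 0 members at an FDR of 0.05, where it called 0 of 17088 genes higher and 1 lower. The groups were separate in 13 members higher and 1 lower (*Ift46*), where 7.14% and 6.6% of all genes were. With 1 surrogate variable in the fit, an alternative chosen after earlier results, there were 6 such members, where 6.56% of all genes were called. Without control M898 there were 9, where 8.83% of all genes were called. Without control M833 there were 19, all higher, where 17.6% were called, and without M909 there were 17 higher and 2 lower, where 17.8% were called, so that the counts over all genes moved in the same direction. Without control M833 the groups were separate in 22 members, all higher, where 8.26% of all genes were separate higher and 7.83% lower.

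**Figure D2:**
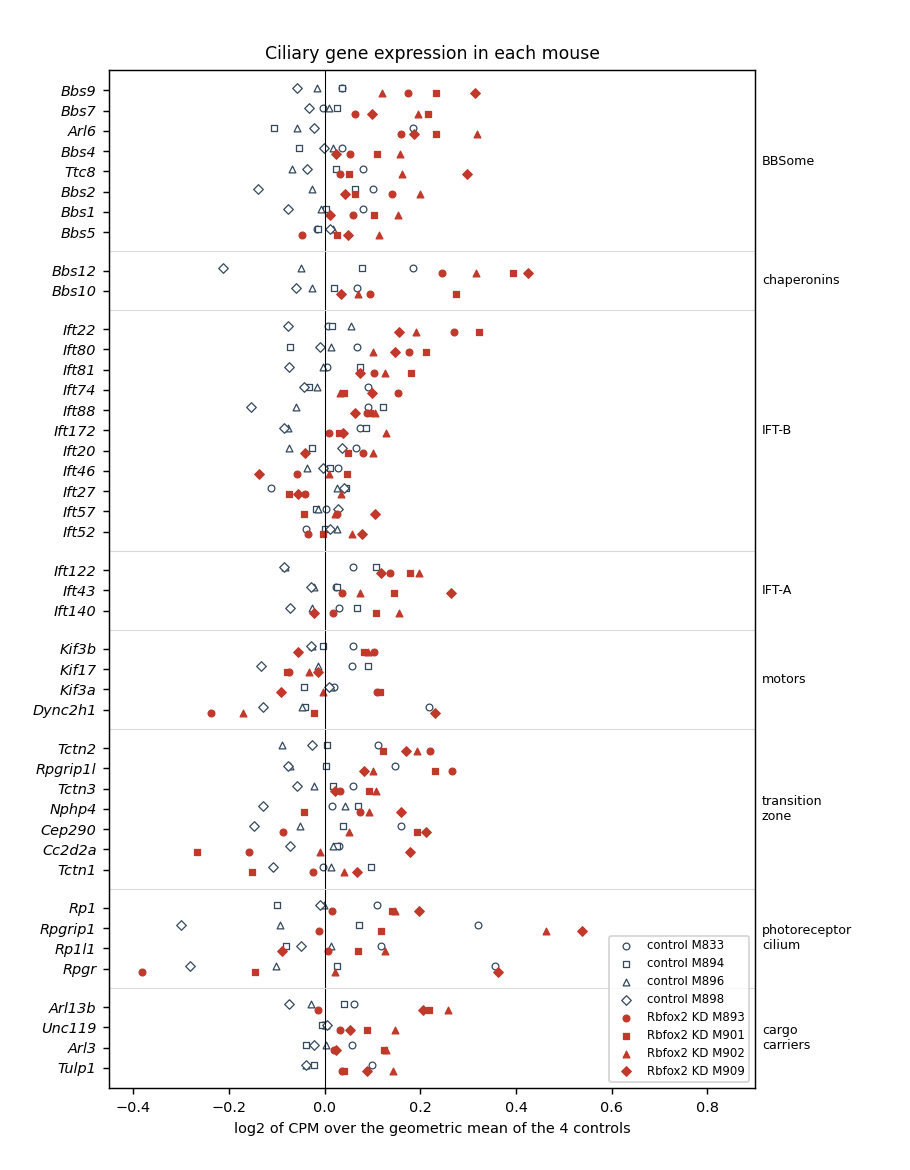
Each mouse's CPM relative to the geometric mean of the 4 controls (x, log2) for 43 of the ciliary genes, grouped by role and ordered by p within a role, with open symbols for controls and filled symbols for *Rbfox2*-/- mice. In 10 of these, such as *Bbs9*, *Ift22* and *Unc119*, all filled symbols lie to the right of all open symbols, and *Rpgr* and *Dync2h1* show wide and mixed groups.

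All 8 BBSome genes among the members had a log2 fold change above 0, where 50.7% of all genes tested did, with a median of 0.12. With all mice the unadjusted p was under 0.05 in 5 of these 8, beside 13.3% of all genes tested. Without M901 and M902 it was under 0.05 only in *Bbs9*, beside 6.01% of all genes. *Bbs9*, a core subunit, was measured at 133, 138, 128 and 146 CPM in M893, M901, M902 and M909 and at 120.4, 120.5, 116 and 113 CPM in M833, M894, M896 and M898, the order of controls kept below. Every *Rbfox2*-/- value was above every control value. The means were 136 ± 7.91 CPM and 118 ± 3.66 CPM (SD, n = 4 each), a log2 fold change of 0.21 ± 0.044 (SE, edgeR quasi-likelihood FDR 0.129). *Bbs9* lies on chromosome 9 of GRCm38 (22475715 to 22888280), and without M901 and M902 its log2 fold change was 0.24.

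*Bbs7* (chromosome 3, 36573142 to 36613477), a propeller-bearing subunit, had 199.9, 222, 219 and 205 CPM in M893, M901, M902 and M909 and 191, 195, 192 and 187 CPM in the controls in the order above. The groups were separate, with the highest values in M901 and M902, and the log2 fold change was 0.14 ± 0.040 (SE, edgeR quasi-likelihood FDR 0.22) and 0.078 without M901 and M902. *Arl6* (chromosome 16, 59612949 to 59639391), the GTPase that recruits the BBSome to membranes, had 99.6, 105, 111 and 101 CPM against 101, 82.9, 85.7 and 87.8 CPM. Control M833 lay within the *Rbfox2*-/- range, so that the groups overlapped, with a log2 fold change of 0.22 ± 0.063 (SE, edgeR quasi-likelihood FDR 0.224). *Arl6* shares exonic sequence with a gene on the other strand, 4930547E14Rik, and whether the counting used the strand is not given in the sources used here. *Ttc8* and *Bbs4* had unadjusted p under 0.05 with overlapping groups and log2 fold changes of 0.14 and 0.086. *Bbs2*, *Bbs1* and *Bbs5* had 0.11, 0.082 and 0.036.

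*Bbs10* and *Bbs12* encode chaperonin-like proteins that assemble the BBSome. The largest log2 fold change of all 45 members was that of *Bbs12* (chromosome 3, 37312554 to 37321453). Its levels were 29.3, 32.5, 30.8 and 33.2 CPM in M893, M901, M902 and M909 and 28.1, 26.1, 23.9 and 21.3 CPM in M833, M894, M896 and M898. M893 and M833 were the nearest mice of the 2 groups, which did not overlap. The means differed by 26.5%, with a log2 fold change of 0.34 ± 0.080 (SE, edgeR quasi-likelihood FDR 0.176). Exons of *Bbs12* overlap those of *Cetn4* on the other strand and of Gm43439 on the same strand, where reads can be lost or shared. *Bbs10* had a log2 fold change of 0.12 with overlapping groups.

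Of the 11 IFT-B genes among the members, 9 had a log2 fold change above 0 and 3 an unadjusted p under 0.05. The shares of all genes tested were 50.7% and 13.3%, and the median of the 11 was 0.050. *Traf3ip1*, *Cluap1*, *Ttc30b*, *Ttc26*, *Ttc30a1* and *Hspb11*, IFT-B genes outside the rule, ran from -0.027 (*Traf3ip1*) to 0.11 (*Hspb11*). None of these had an unadjusted p under 0.05. *Ift22*, which encodes a small GTPase-like subunit, had 23.3, 24.2, 22.1 and 21.5 CPM in M893, M901, M902 and M909 and 19.4, 19.5, 20.1 and 18.3 CPM in the controls. The lowest *Rbfox2*-/- mouse was above the highest control, and the log2 fold change was 0.24 ± 0.051 (SE, edgeR quasi-likelihood FDR 0.144). *Ift22* lies on chromosome 5 (136908150 to 136915404).

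*Ift80* (chromosome 3, 68892499 to 69004570), a peripheral subunit, had 77.9, 79.8, 74.0 and 76.3 CPM against 72.2, 65.6, 69.5 and 68.5 CPM, a log2 fold change of 0.16 ± 0.040 (SE, edgeR quasi-likelihood FDR 0.183). *Ift81* (chromosome 5, 122550204 to 122614518), which binds tubulin together with *Ift74*, had 60.02, 63.3, 61.0 and 58.8 CPM against 56.1, 58.8, 55.7 and 53.0 CPM. For *Ift80* the groups were apart, whereas for *Ift81* M909, at 58.83 CPM, was only just above control M894, at 58.79 CPM. The log2 fold change of *Ift81* was 0.12 ± 0.041 (SE, edgeR quasi-likelihood FDR 0.276). The other 8 IFT-B genes overlapped between the groups, with log2 fold changes from -0.035 (*Ift27*) to 0.084 (*Ift88*). The estimates for this complex thus lay on both sides of 0.

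All 3 IFT-A genes among the members had a log2 fold change above 0, where 50.7% of all genes tested did. The rule takes only those with an Ift symbol. *Wdr19*, *Wdr35* and *Ttc21b*, IFT-A genes outside the rule, had 0.053, 0.079 and 0.055 with overlapping groups. *Ift122* (chromosome 6, 115853470 to 115926699), a core subunit, had 69.0, 70.9, 71.8 and 68.0 CPM in M893, M901, M902 and M909 and 65.3, 67.5, 59.2 and 59.1 CPM in the controls. *Ift43* (chromosome 12, 86082541 to 86162459), a peripheral subunit, had 19.8, 21.4, 20.3 and 23.2 CPM against 19.66, 19.69, 19.0 and 18.9 CPM. In both genes every *Rbfox2*-/- mouse was above every control, for *Ift43* narrowly between M893 and M894. The log2 fold changes were 0.16 ± 0.049 (SE, FDR 0.26) for *Ift122* and 0.13 ± 0.055 (SE, FDR 0.35) for *Ift43*, both in the edgeR quasi-likelihood fit, and that of *Ift43* was 0.086 without M909. *Ift140* had 0.065 with overlapping groups.

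The motors had no common direction. None of the 4 had an unadjusted p under 0.05 with all mice, where 13.3% of all genes tested did, and their median log2 fold change was -0.0049. *Kif3b*, a motor subunit of kinesin-2 (chromosome 2, 153291413 to 153333390), had 143, 141 and 142 CPM in M893, M901 and M902 but 129 CPM in M909, against 139, 133, 131 and 131 CPM for the controls. M909 was below every control, and the log2 fold change was 0.057 ± 0.041 (SE, edgeR quasi-likelihood FDR 0.582). It was 0.093 without M909, with an unadjusted p of 0.0134 and an FDR of 0.181 by that edgeR test, and 0.023 without M901 and M902. Without M909, 17.8% of all genes had an unadjusted p under 0.05. *Kif3a*, its partner, had 0.035, *Kif17*, another ciliary kinesin, -0.051, and *Dync2h1*, the heavy chain of dynein-2, -0.045, each with overlapping groups.

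Of the 9 transition zone genes among the members, 6 had a log2 fold change above 0 and 2 an unadjusted p under 0.05. The shares of all genes tested were 50.7% and 13.3%, and the median of the 9 was 0.071. *Tctn2* (chromosome 5, 124598749 to 124627738), a tectonic protein of the membrane barrier, had 34.6, 32.3, 33.9 and 33.3 CPM in M893, M901, M902 and M909 and 32.0, 29.7, 27.9 and 29.1 CPM in the controls. The groups were separate, with control M833 close to M901, and the log2 fold change was 0.17 ± 0.049 (SE, edgeR quasi-likelihood FDR 0.221). *Rpgrip1l* (chromosome 8, 91217030 to 91313262), a scaffold of this region, had 27.4, 26.8, 24.5 and 24.1 CPM against 25.3, 22.9, 21.7 and 21.6 CPM. Here control M833 lay above M902 and M909, and the log2 fold change was 0.17 ± 0.064 (SE, edgeR quasi-likelihood FDR 0.318).

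*Tctn1* and *Cc2d2a* had log2 fold changes of -0.016 and -0.055. Without M909, which had the highest level of *Cc2d2a* of all mice, that of *Cc2d2a* was -0.14, with an unadjusted p of 0.0372 from edgeR's quasi-likelihood test. In that setting 17.8% of all genes had a p under 0.05. *Cep290*, *Nphp4* and *Tctn3* had 0.093, 0.071 and 0.063.

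The 4 proteins of the photoreceptor's own connecting cilium and axoneme had no unadjusted p under 0.05, where 13.3% of all genes tested had one. *Rp1* (chromosome 1, 3999557 to 4409241) had 2037, 2221, 2233 and 2310.2 CPM in M893, M901, M902 and M909 and 2175, 1882, 2012 and 2002 CPM in the controls. In 3 of 4 *Rbfox2*-/- mice the level was above all controls, and the log2 fold change was 0.12 ± 0.057 (SE, edgeR quasi-likelihood FDR 0.382). *Rp1l1* (chromosome 14, 63992506 to 64035025) had 886, 925, 961 and 828 CPM against 956, 833.2, 888 and 851 CPM. M909 was the lowest mouse and M902 the highest, and the log2 fold change of 0.029 ± 0.059 (SE, edgeR quasi-likelihood FDR 0.871) turned to -0.044 without M901 and M902.

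*Rpgr* and *Rpgrip1*, partners in the connecting cilium, varied most of all members among the controls. *Rpgr* (X chromosome, 10073621 to 10216920) had 20.7, 24.3, 27.3 and 34.6 CPM in M893, M901, M902 and M909 and 34.4, 27.4, 25.1 and 22.1 CPM in M833, M894, M896 and M898. M909 and control M833 were the highest mice and M893 and control M898 the lowest of their groups, and the 2 mice with high *Xist* lay between. The log2 fold change was -0.029 ± 0.16 (SE, edgeR quasi-likelihood FDR 0.96), and it was 0.017 without M901 and M902 and 0.10 without M833. *Rpgr* shares exonic sequence with *Srpx* on the same strand. *Rpgrip1* ranged from 487 to 713 CPM in *Rbfox2*-/- retinas and from 399 to 613 CPM in controls, with a log2 fold change of 0.28 ± 0.15 (SE). The coefficient of variation among controls was 19.2% for *Rpgr* and 18.3% for *Rpgrip1*, against 0.316% for *Unc119*.

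Of the 4 genes that load, release or carry ciliary cargo, all had a log2 fold change above 0 and only *Arl13b* an unadjusted p under 0.05. The shares of all genes tested were 50.7% and 13.3%. *Unc119* (chromosome 11, 78343482 to 78349164) had 1758, 1829.6, 1904 and 1784 CPM in M893, M901, M902 and M909 and 1716, 1714, 1723 and 1725 CPM in the controls. The controls were almost equal and all *Rbfox2*-/- mice were above them, by 5.76% in the mean, yet the log2 fold change of 0.081 ± 0.040 (SE) had an FDR of 0.41 in the edgeR quasi-likelihood fit, which shares information on the spread among genes. Without M901 and M902 it was 0.040. *Arl13b* (chromosome 16, 62793685 to 62847040), the GTPase that activates *Arl3*, had 61.4 CPM in M893, within the control range of 59.0 to 64.8 CPM, and 72.1, 74.2 and 71.5 CPM in M901, M902 and M909, a log2 fold change of 0.17 ± 0.060 (SE, edgeR quasi-likelihood FDR 0.286) that was 0.096 without M901 and M902.

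*Tulp1* (chromosome 17, 28351515 to 28365222) had 1459, 1464, 1571 and 1512 CPM against 1524, 1400.0, 1385 and 1386 CPM. Among its controls M833 was far above the other 3, and the log2 fold change was 0.077 ± 0.047 (SE, edgeR quasi-likelihood FDR 0.513). *Arl3* (chromosome 19, 46531096 to 46573198) had 209, 225, 225 and 209.5 CPM against 214, 201, 206 and 203 CPM. M901 and M902 were above all controls and M893 and M909 within their range, with a log2 fold change of 0.074 ± 0.039 (SE, edgeR quasi-likelihood FDR 0.438) that was 0.019 without M901 and M902. *Rp2h* (X chromosome, 20364481 to 20405653), which encodes the activator of GTP hydrolysis on *Arl3*, was measured at 15.9 to 17.0 CPM in *Rbfox2*-/- retinas and 15.2 to 17.9 CPM in controls, a log2 fold change of 0.0012 ± 0.056 (SE). Neither X-linked gene, *Rpgr* or *Rp2h*, was thus separate between the groups.

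**Figure D3:**
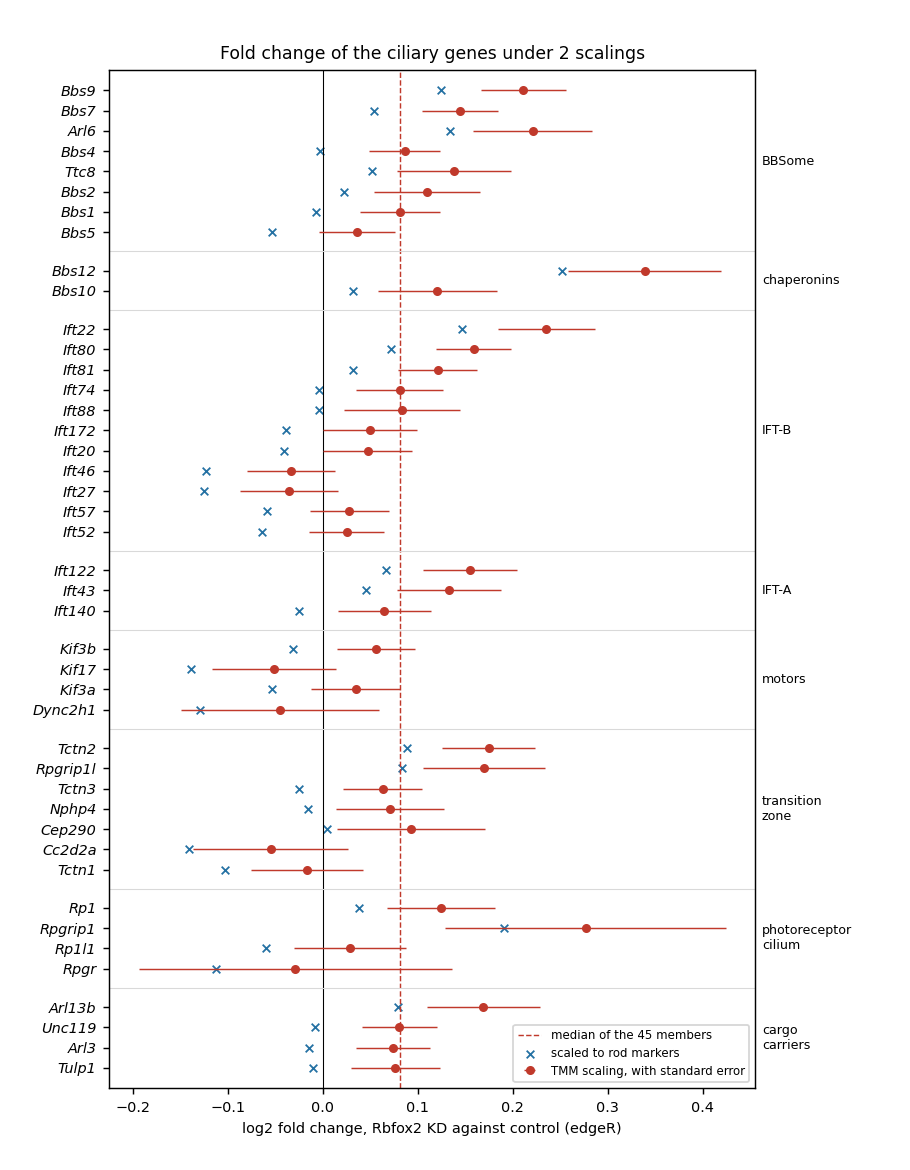
Log2 fold change of 43 of the ciliary genes in *Rbfox2*-/- against control retinas, by edgeR with TMM scaling (points, with standard error) and with the libraries scaled to 8 rod marker genes (crosses). The dashed line is the median of 0.081 over all 45 with TMM scaling. The crosses lie lower for every gene shown, as the change of scale moves every gene by nearly the same amount.

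A further 62 ciliary genes outside the rule were taken as a list, among them transition zone, IFT and outer segment genes. The log2 fold change was above 0 in 51 of 62, against 50.7% of all genes tested, and its median was 0.075, against 0.0016. At an unadjusted p under 0.05, 15 were higher and 1 was lower, beside 6.42% and 6.87% of all genes tested. In edgeR's quasi-likelihood test 0 had an FDR under 0.05, where 0.0655% of all genes did. The 6 with the lowest p were *Tmem237* (log2 fold change 0.24 ± 0.049 SE), *Tmem107* (0.29 ± 0.072 SE), *Pde6d* (0.15 ± 0.038 SE), *Mkks* (0.22 ± 0.064 SE), *Cdhr1* (0.17 ± 0.051 SE) and *Ahi1* (-0.13 ± 0.040 SE), with FDR from 0.116 to 0.244 in the edgeR quasi-likelihood fit.

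These 6 span several roles. *Tmem237* and *Tmem107* encode membrane proteins of the transition zone, *Pde6d* a carrier of prenylated proteins, *Mkks* a chaperonin that works with *Bbs10* and *Bbs12*, and *Cdhr1* a cadherin at the base of the outer segment. *Ahi1*, another transition zone protein, went the other way, with 209, 221, 222 and 203 CPM in M893, M901, M902 and M909 and 241, 228, 239 and 229.8 CPM in the controls, so that every *Rbfox2*-/- mouse was below every control. *Tmem237* had 58.7, 66.2, 65.8 and 61.0 CPM against 56.3, 52.1, 52.8 and 51.9 CPM and was separate in the opposite direction. Without M901 and M902, 4 of the 62 had an unadjusted p under 0.05, beside the 6.01% of all genes in that setting. The median log2 fold change of the 62 was then 0.046, against -0.0043 over all genes tested.

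Photoreceptors make up most of the cells of a mouse retina, and in bulk RNA more cells of a type and more RNA per cell cannot be told apart. Markers of retinal cell types were therefore summed per mouse. The 8 rod markers, among them the transducin subunit *Gnat1*, the phosphodiesterase subunit *Pde6b* and the transcription factor *Nrl*, summed to between 64304 and 69893 CPM in *Rbfox2*-/- retinas and to between 61966 and 66660.1 CPM in controls, with 7 of 8 genes at a log2 fold change above 0 and a median of 0.079. The 8 cone markers summed to between 1057 and 1189.6 CPM against 983 to 990.4 CPM, with every *Rbfox2*-/- mouse above every control. Of the cone markers 7 of 8 had a log2 fold change above 0, with a median of 0.15, and the exception was the opsin gene *Opn1mw* at -0.23 ± 0.094 (SE).

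The median of the 45 members against the control mean was 0.036, 0.093, 0.11 and 0.088 on the log2 scale in M893, M901, M902 and M909, and 0.060, 0.021, -0.023 and -0.057 in M833, M894, M896 and M898. In both the members and the rod markers M893 had the lowest and M902 the highest value of the *Rbfox2*-/- mice, and M833 the highest of the controls, whereas control M898 was lowest for the members but above M894 and M896 for the rod markers. Müller glia markers summed to 6023, 5595 and 5546 CPM in M893, M901 and M902, below the 6199 to 6872 CPM of the controls, and to 6288 CPM in M909, while 4 of the 8 genes had a log2 fold change above 0 and their median was -0.017. When the libraries were scaled to the 8 rod markers instead of by TMM, a choice made after seeing these values, 19 of 45 log2 fold changes were above 0, their median was -0.0069, and 4 members had an unadjusted p under 0.05 (*Bbs12*, *Ift22* and *Arl6* higher, *Ift46* lower), where 1.5% of all genes were higher, 19.7% lower and 21.2% either. The same scaling moved the median of all genes tested to -0.086, so that the members' median stood 0.080 above that of all genes with rod scaling and 0.079 with TMM. A change of scale moves every gene by nearly the same amount, so that this distance stays almost fixed and cannot show the part of rod RNA. The part of rod RNA content in the members' values was not tested.

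**Figure D4:**
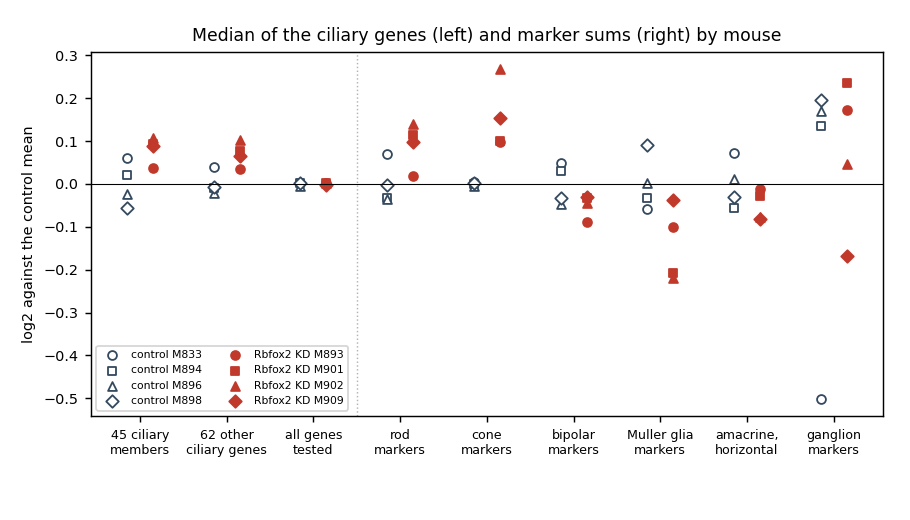
Median log2 level of the 45 members, of 62 other ciliary genes and of all genes tested relative to the control mean (left), and summed CPM of 8 markers per cell type relative to the geometric mean of the controls (right, log2), with 1 symbol per mouse. The members run from -0.057 (control M898) to 0.11 (M902), cone markers are higher in every *Rbfox2*-/- mouse than in every control, and all genes tested lie close to 0.

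The marker sums of the other cell types overlapped between the groups, though some lists were one-sided by gene. Bipolar markers summed to 1739.7 to 1812 CPM in *Rbfox2*-/- retinas and 1793 to 1913 CPM in controls, and those of amacrine and horizontal cells to 974 to 1024 CPM and 993 to 1085 CPM. In each of these 2 lists 2 of 8 genes had a log2 fold change above 0, with medians of -0.085 and -0.064. Ganglion cell markers were at 901.5 to 1193 CPM against 1112 to 1162 CPM in 3 controls and 715 CPM in control M833, with 6 of 8 genes above 0 and a median of 0.054. Endothelial markers were at 306 to 385 CPM against 365 to 381 CPM, with 1 of 8 genes at a log2 fold change above 0 and a median of -0.25. Those of the ciliary epithelium, a tissue at the rim of the retina, were at 291 to 335 CPM against 331 to 419 CPM, with 0 of 8 genes above 0 and a median of -0.90. Those of the pigment epithelium were at 57.9 to 156 CPM against 66.5 to 206 CPM, with 2 of 8 genes above 0 and a median of -0.18, and the pigment genes *Tyr*, *Tyrp1* and *Pmel* at -1.43, -2.03 and -2.13. The part of these tissues in the members' values was not tested. Multiciliated cells, which carry motile cilia, are not a cell type of the retina. Their 8 markers summed to 49.1 to 69.7 CPM in *Rbfox2*-/- retinas and 42.4 to 58.8 CPM in controls, with 5 of 8 genes above 0 and a median of 0.061, and with *Rsph4a* at 0 to 0.13 CPM, *Rsph1* at 0.164 to 0.305 CPM and *Dnah5* at 0.233 to 0.479 CPM, and *Dnah9* at 22.7 to 41.3 CPM.

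A sequence feature that the choice of genes did not use was counted in the promoters of the members. Regulatory factor X (RFX) proteins, a family of transcription factors of ciliary genes in animals, bind a palindrome known as the X-box, whose arms read GTTNCC and GGNAAC. RefSeq promoters (GRCm38.p6, 250 bases before to 50 after the start of transcription) were found for 38 of the 45 members, but not for *Ift122*, *Ift80*, *Ift81*, *Rp1* and *Rp1l1* among others, and were searched on both strands. The half-site GTTNCC occurred in 30 of the 38 genes (78.9%, Wilson 95% interval 63.7 to 88.9%), and in 48.8% of all 27025 genes with a promoter. The palindrome, both arms with 2 bases between them, occurred in 2 of 38 (*Bbs7* and *Tctn1*, 5.26%, interval 1.46 to 17.3%), and in 0.529% of all genes. With the first arm relaxed to GTNNCC, a form chosen after the promoters were seen, 8 of 38 genes held it (21.1%, interval 11.1 to 36.3%), namely *Bbs1*, *Bbs4*, *Bbs7*, *Ift22*, *Ift57*, *Nphp4*, *Tctn1* and *Tctn2*, against 1.49% of all genes.

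Every match of the longer forms also holds the half-site. Counted over the 32851 promoters, of which some genes have several, the shares were 45.3% for the half-site, 0.451% for the palindrome and 1.29% for the relaxed form. Of the 54 other ciliary genes with a promoter, 36 held the half-site and 7 the relaxed form. CTAATCC, the core bound by the photoreceptor factor CRX, was in 1 of the 38 (*Rpgrip1*) and in 2.34% of all genes. Relaxed matches that lie before the start of transcription are shown for 3 members whose groups were separate and for *Ift57*, whose groups overlapped, with the match in capitals and 20 bases on each side:
*Bbs7*, chr3:36613477-36613530, minus strand: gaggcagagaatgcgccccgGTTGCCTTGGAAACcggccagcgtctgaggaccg
*Ift22*, chr5:136908097-136908150, plus strand: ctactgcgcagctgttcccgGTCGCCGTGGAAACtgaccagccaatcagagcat
*Tctn2*, chr5:124598667-124598720, plus strand: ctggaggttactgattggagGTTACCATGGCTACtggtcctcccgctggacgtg
*Ift57*, chr16:49699187-49699240, plus strand: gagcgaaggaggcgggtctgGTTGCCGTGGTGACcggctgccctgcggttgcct

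The matches begin 121, 33, 62 and 87 bases before the RefSeq start of transcription in these 4 genes. By GENCODE the windows lie upstream of the gene, except that the last base of those of *Bbs7* and *Ift22* and the last few bases of that of *Ift57* fall in the first exon. The 8 members with a relaxed match had a median log2 fold change of 0.084, with 7 above 0, and the 30 members with a promoter but no such match had 0.076, with 24 above 0. The 30 members with the half-site had a median of 0.068 and the 8 without it 0.17. A match is a description of the letters and not a measured binding site.

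**Figure D5:**
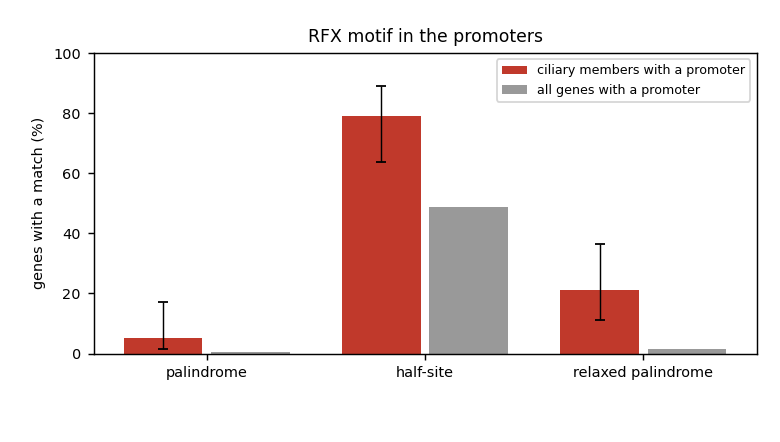
Share of genes whose RefSeq promoter holds an RFX motif (y, percent) for the 38 ciliary members with a promoter (red bars, with Wilson 95% intervals) and for all 27025 genes with a promoter (grey bars), for the palindrome, its half-site and its relaxed form. Members hold the half-site in 78.9% against 48.8% of genes, and the relaxed form in 21.1% against 1.49%.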

How the data were processed

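Retinal poly(A) RNA of 8 mice was sequenced. According to the methods, the authors used STAR against mm10, took the reads that mapped uniquely and obtained gene counts with HTSeq. The deposited table gives raw counts, which were used for all tests, FPKM by the authors, used only for levels between genes, a signal of library-size-adjusted counts by the authors, which was not used, and the authors' fold changes, p-values and FDR, which were not used. The sample labels name CASAVA 1.8.2 and edgeR.

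With edgeR 4.0.16 in R 4.3.3, low counts were removed by filterByExpr, libraries scaled by TMM and groups compared, without covariates, by the quasi-likelihood test with Benjamini-Hochberg adjustment over all 16797 genes tested. CPM were computed on the TMM-scaled library size. An SE is the size of the log2 fold change over the root of its F statistic. Depth was 160630226 to 211283591 counts per mouse, so that 3 counts are at most 0.0189 CPM, and the 4 mice per group limit the precision more than counting does. Such floors and the binomial intervals cover counting error only. Every pair of libraries differed beyond sampling noise, and labels do not say whether mice share a litter. The test was tried on simulated counts. These lack the differences between particular mice that move the counts here, so that no conclusion is drawn from them. Positions are GENCODE M21 (GRCm38), matched by symbol.

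The members, gene lists and tests were chosen with earlier results of these data known. Named with their values are the 12 members with the lowest p among those with p under 0.05, *Rpgr* and *Rp2h* on the X chromosome, the 5 members with the highest FPKM, the lowest p of each role group, and the 6 other ciliary genes with the lowest p. *Rpgrip1* and others beyond this rule were named after their values were seen. Some items are not reported here by name, though the counts include them. Alternatives were DESeq2 1.42.0, the likelihood ratio test, limma-voom (limma 3.58.1), upper-quartile and no composition scaling, no filter and at least 10 counts in every sample, each mouse left out, M901 and M902 left out and, chosen after seeing the data or earlier results, rod marker scaling and 1 surrogate variable (sva 3.50.0).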

Additional observations from a re-analysis of the deposited data

Results flagged for a closer look

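Among 62 sets of 4 values, 1 per mouse of a group, 4 held a mouse whose distance to its closest neighbour passed the Dixon limit for the range, where chance gives about 3.1. *Kif3b* was at 129 CPM in M909, below the 141 to 143 CPM of the other *Rbfox2*-/- mice. *Tulp1* was at 1524 CPM in control M833, above the 1385 to 1400.0 CPM of the other controls. The ganglion cell marker sum was 715 CPM in control M833, against 1112 to 1162 CPM in the other controls. The multiciliated cell marker sum was 69.7 CPM in M909, against 49.1 to 51.7 CPM in the other *Rbfox2*-/- mice.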

How the results depend on the processing

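Of 342 values of log2 fold change, for 19 named members under 18 alternatives each, 321 kept their direction and their side of the FDR threshold, 9 newly passed it and 12 reversed. Members with an FDR under 0.05 numbered 0 by edgeR's quasi-likelihood test, 7 by DESeq2 (*Bbs9*, *Bbs12*, *Ift22*, *Ift80*, *Tctn2*, *Arl6* and *Bbs7*) and 2 by the likelihood ratio test (*Bbs9* and *Bbs12*). Of all genes tested, 0.0655%, 2.77% and 0.976% were called in that order. Members with an unadjusted p under 0.05 numbered 14, where 13.3% of all genes tested had such a p. They became 6 without M901 and M902 (6.01% of all genes), 4 with rod marker scaling (21.2%) and 6 with 1 surrogate variable (6.56%). With a mouse left out they ran from 9 (without M898, 8.83%) to 19 (without M833, 17.6%, or M909, 17.8%). Other ciliary genes with such a p numbered 16 and became 4, 6 and 5 under the same 3 alternatives, with the same shares of all genes. With a mouse left out they ran from 10 (without M902, 9.50% of all genes) to 16 (without M909 among others, 17.8%). The members' median log2 fold change, 0.081, became -0.0069 with rod marker scaling and 0.046 with 1 surrogate variable. Members whose groups did not overlap numbered 11, where 7.03% of all genes were separate, and 11 to 22 with a mouse left out. The 22 were found without M833, where 8.26% of all genes were separate higher and 7.83% lower. The reversed values were, with rod marker scaling, -0.014 (*Arl3*), -0.031 (*Kif3b*), -0.059 (*Rp1l1*), -0.011 (*Tulp1*) and -0.0084 (*Unc119*), for *Rp1l1* -0.044 without M901 and M902 and -0.066 with 1 surrogate variable, and for *Rpgr* 0.017 without M901 and M902. With each mouse left out, *Rpgr* ran from -0.18 to 0.10 and *Rp1l1* from -0.0046 to 0.068. The share of member promoters with the motif was 5.26% for the palindrome, 78.9% for the half-site and 21.1% for the relaxed form. Beyond what these settings change by construction, the cause was not tested. No paired analysis was possible because the mice carry no shared replicate numbers.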

Other observations

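*Dync2h1* and *Rpgr* were highest in the same pair of libraries. *Dync2h1* was at 108 CPM in M909 and 107 CPM in control M833, against 77.9 to 90.4 CPM in the other 6 mice, and *Rpgr* was at 34.6 and 34.4 CPM in these 2 mice, against 20.7 to 27.4 CPM. These 2 genes were singled out after their values were seen. Of the 8 multiciliated cell markers, whose median log2 fold change was 0.061, the highest values were those of *Foxj1*, the transcription factor of motile cilia (0.40 ± 0.10 SE, edgeR quasi-likelihood FDR 0.192), and *Ccdc39*, a structural protein of motile axonemes (0.29 ± 0.10 SE, FDR 0.283 in that fit), and the lowest was that of *Rsph4a* (-0.72 ± 0.83 SE), which had at most 0.13 CPM.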
